A study of Mus musculus with 71 samples.

Results

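The numbered Zfp genes of mouse embryonic stem cells (mESCs) were followed here: every gene whose symbol is Zfp and digits, with 1 RefSeq accession in the RNA-seq tables and a mean normalized count of 10 or more over the 4 RNA-seq libraries, Zfp42 left out. The rule gave 240 genes, out of 34010 accessions in the tables and 11113 accessions at or above the same mean. The members were thus selected on their measured mean count in these same libraries. The change between genotypes did not enter the rule. The tables held 357 numbered Zfp genes, of which 87 had several accessions and 29 had 1 accession and a mean under 10. Of the 87, 16 (18.4%) were listed at 0 in every library, against 4 (1.48%) of the 270 with 1 accession, so genes with several isoforms could not be compared on the same footing. The genes just inside the limit were Zfp300, Zfp972 and Zfp784, at means of 10.1, 10.4 and 10.8, and those just outside were Zfp455, Zfp964 and Zfp108, at 9.21, 8.09 and 7.82. Of the 240, 235 had a mean of at least 10 in both genotypes. The others were Zfp709, Zfp783, Zfp784 and Zfp300, which passed through WT alone, and Zfp972, which passed through H1-TKO alone.

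Most Zfp genes encode C2H2 zinc finger proteins, in which repeated fingers each hold a zinc ion and together read a stretch of DNA. Many carry a KRAB domain at the N-terminus, which recruits the corepressor Trim28 and, through it, histone methylation and deacetylation. KRAB zinc finger genes are known for repressing retrotransposons in mESCs, and they arose by tandem duplication, so that they sit in clusters. H1 linker histones bind the DNA between nucleosomes and compact chromatin.

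The mESCs were of the R1 line, and the study compared wild type (WT) cells with H1-TKO cells, in which H1c, H1d and H1e were knocked out by CRISPR/Cas9. The RNA-seq of polyA RNA held 2 libraries for each genotype, and the H3K27me3 ChIP-seq peak lists used here held 1 for each. The knockout came from clones picked from single cells. By the study's methods the 2 RNA-seq libraries of a genotype were independent samples, and how many clones they stand for is not given in the sources used here. P-values measure the spread between these libraries. No treatment or age applies.

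The genotype in the RNA-seq tables was the opposite of that in the sample titles, and that of the tables is used throughout. Of the targeted genes, H1f3 (H1d) read 3.9 and 41.4 normalized counts in WT against 1.1 and 0.0 in H1-TKO. H1f4 (H1e) was at 5.4 and 19.6 against 0.0 and 2.1, while H1f2 (H1c) overlapped, at 11.6 and 56.7 against 18.7 and 7.4. The libraries held 6951619 to 10538507 reads assigned to accessions, and 1 accession took 11.8% of WT replicate 2 and 1.98% to 2.08% of each of the others. The mESC markers Pou5f1, Sox2 and Tfcp2l1 were at 2585.9 or more in every library, whereas Nanog, which has several accessions, was listed at 0 and Esrrb was at most at 3.3. Marker levels moved with genotype: 5 of 7 mESC marker accessions tested were higher in H1-TKO, with summed levels of 23932.2 and 33303.2 in WT and 47528.1 and 47504.3 in H1-TKO. The summed neural markers were at 2934.2 and 897.7 in WT and at 212.6 and 245.4 in H1-TKO, nearly all of it Nes. Fibroblast markers went both ways: Thy1 was at 109.4 and 125.4 in WT and at 449.5 and 510.8 in H1-TKO, and Col1a1 at 195.5 and 148.3 against 34.2 and 53.7, both past the limma threshold. Dcn and Postn were at 0, and the sum of the list was 345.2 and 296.6 against 503.5 and 570.8. The part of these differences in the Zfp results was not tested, and in bulk RNA fewer cells of a type and less RNA per cell cannot be told apart.

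Zfp transcripts were more often lower than higher in H1-TKO. By limma across all 11113 accessions, with Benjamini-Hochberg adjustment, 28 of the 240 genes (11.7%) were lower at an adjusted p under 0.05 and 4 (1.67%) were higher. The background over all accessions was 20.5% called, with 10.7% lower and 9.84% higher, so the share of Zfp genes lower was near the background and the share higher was under it. The median log2 fold change (H1-TKO over WT) of the Zfp genes was -0.23, against -0.02 for the other accessions, and 154 of 240 (64.2%) were below 0 against 51.5% of all. In each of the 4 pairs of a WT and an H1-TKO library the median was below 0, from -0.12 to -0.23. Between WT replicates it was -0.04 and between H1-TKO replicates 0.02. Without overlap between genotypes, 104 Zfp genes (43.3%) were lower and 50 (20.8%) higher, against 34.2% and 32.2% of all accessions.

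The number of calls rested on the libraries and on how the spread was estimated, while the excess of lower over higher calls was present in every fit that made a call. Without WT replicate 1, 61 Zfp genes were lower and 26 higher, and without WT replicate 2, 65 and 20; over all 11113 accessions, 2786 were lower and 2682 higher in the first of these fits and 2564 and 2386 in the second. Without H1-TKO replicate 1 the counts were 10 and 1, and without H1-TKO replicate 2 they were 7 and 2. Over all accessions, 397 were lower and 206 higher without H1-TKO replicate 1, and 386 and 199 without H1-TKO replicate 2, so in both fits lower calls outnumbered higher ones among all genes too. With the library left out, the spread came from the remaining pair alone, and the WT pair was the wider, with 5.42% of Zfp genes at least 2-fold apart between WT replicates and 3.33% between H1-TKO replicates. With 1 variance prior for all levels instead of a trend, limma called no Zfp gene, although 69 had an unadjusted p under 0.05. The loss was general, as that fit called only 43 of all 11113 accessions higher and 37 lower. The median of the Zfp genes stayed below 0 in each fit, from -0.13 without WT replicate 1 to -0.29 without WT replicate 2.

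The 28 lower genes fell into KRAB genes of mostly unstudied function and factors with other roles. Zfp709, a KRAB gene on chromosome 8 with 18 finger patterns, was at 65.2 and 94.9 in WT and at 8.8 and 10.5 in H1-TKO, a log2 fold change of -2.90 (SE 0.47, limma adjusted p = 0.00878). It was in the set through WT alone, at a mean of 80.0 against 9.7, so its direction was fixed by the minimum count. In limma with no minimum, over the 20632 accessions above 0 in any library, the adjusted p of Zfp709 was 0.0228. Among the genes with a mean of at least 10 in both genotypes, the deepest change was that of Zfp992, a KRAB gene on chromosome 4, at 188.5 and 349.0 against 37.5 and 54.8 (log2 fold change -2.48, SE 0.38, limma adjusted p = 0.0075). In neither gene did the genotypes overlap. Zfp933, another KRAB gene of chromosome 4, was at 48.1 and 64.4 against 13.2 and 9.5, a log2 fold change of -2.21. Zfp160 was at 199.4 and 213.8 against 70.5 and 67.4, Zfp936 at 380.9 and 387.2 against 148.7 and 143.2, and Zfp819 at 197.1 and 271.6 against 79.3 and 89.5, with log2 fold changes of -1.57, -1.39 and -1.45. The genotypes did not overlap in any of these KRAB genes, and the WT replicates lay close together in Zfp160 and Zfp936 and furthest apart in Zfp992.

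Among the lower genes of known role, Zfp423 had the largest change. It encodes a multi-finger partner of EBF and BMP-responsive factors, known in the cerebellum and in fat cell commitment. It was at 616.0 and 937.0 in WT and at 217.1 and 174.8 in H1-TKO (log2 fold change -1.96, SE 0.24, limma adjusted p = 0.00446). Its relative Zfp521 was at 59.7 and 24 against 37.5 and 22.1, an overlap. The neural marker Nes moved the same way, from 2920.2 and 848.6 to 203.8 and 224.3; its part in the Zfp423 result was not tested.

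Zfp532, Zfp592 and Zfp687, whose human homologues are partners of the chromatin reader ZMYND8, were all lower; this group was put together after its values were seen. Zfp532 was at 1446.1 and 2491.3 in WT and at 751.4 and 697.2 in H1-TKO, a log2 fold change of -1.39. Zfp592 was at 504.3 and 491.9 against 221.5 and 207.5 (-1.21 on the log2 scale), and Zfp687 at 740.1 and 845.3 against 503.5 and 447.6 (-0.73). The genotypes did not overlap in any of the 3. Zfp652, which binds a corepressor of the ETO family, was at 681.9 and 884.6 against 299.7 and 347.6 (log2 fold change -1.26, SE 0.19, limma adjusted p = 0.00755).

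Zfp369, a relative of the neurotrophin receptor interacting factor Zfp110, was at 255.2 and 229.1 against 106.9 and 107.4, a log2 fold change of -1.17. Zfp110 itself was at 1089.2 and 991.5 against 840.7 and 843.6, which did not pass (log2 fold change -0.30, limma adjusted p = 0.156). Zfp830, a single-finger protein that early embryos need, was at 459.3 and 535.6 against 238.0 and 318.1. Its call was lost when each chromosome was centred on its other genes (limma adjusted p = 0.21), and its log2 fold change went from -0.85 to -0.385. The calls of Zfp276, Zfp526, Zfp438, Zfp407, Zfp74 and Zfp980 were lost as well, with smaller shifts: Zfp526 went from -1.85 to -1.73 and Zfp980 from -0.58 to -0.54, and the changes of Zfp438 and Zfp407 became slightly deeper. Zfp526 and Zfp438 were called at limma adjusted p of 0.0465 and 0.0499, and kept their calls in 5 and 2 of 11 other fits; Zfp980 also kept its call in 5. The remaining lower genes were Zfp866, Zfp871, Zfp605, Zfp775, Zfp111, Zfp74, Zfp646, Zfp407, Zfp980 and the chromosome 6 genes Zfp282, Zfp956 and Zfp777, with log2 fold changes from -1.29 to -0.58.

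Zfp750, Zfp346, Zfp143 and Zfp984 were higher in H1-TKO. Zfp750, known from epidermal differentiation, was at 76.8 and 153.8 in WT and at 395.5 and 320.2 in H1-TKO (log2 fold change 1.70, SE 0.34, limma adjusted p = 0.0165). Zfp346, which encodes a protein that binds double-stranded RNA, was at 587.3 and 560.7 against 1382.8 and 1229.1 (log2 fold change 1.18, SE 0.14, limma adjusted p = 0.00432). Both rose by more than the WT replicates differed. Zfp143, an activator of small nuclear RNA and protein-coding genes, was at 823.9 and 594.5 against 1102.9 and 1230.2 (0.73 on the log2 scale), and Zfp984, a KRAB gene, at 660.2 and 542.1 against 966.3 and 987.9 (0.71).

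**Figure D1:**
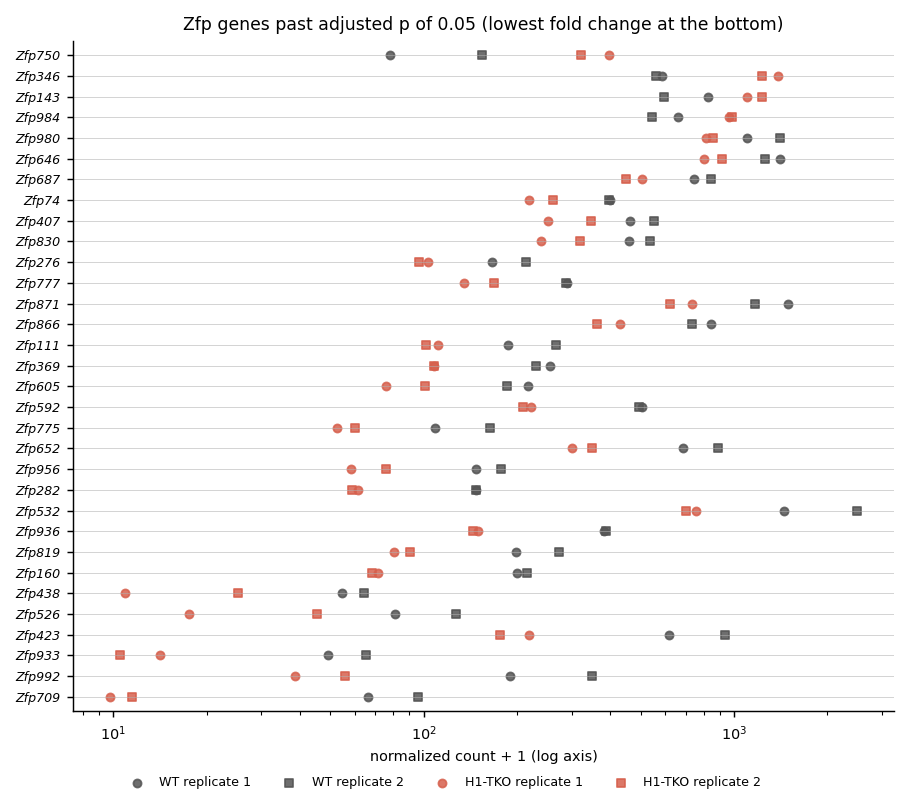
Normalized count plus 1, on a log axis, of the 32 called Zfp genes in each of the 4 libraries, grey for WT and red for H1-TKO, ordered by log2 fold change. The genotypes do not overlap in any row, but the rows were chosen by adjusted p, and 66.4% of all accessions tested had no overlap. The gap is wide in Zfp992 and Zfp933 near the bottom. Zfp709, the lowest row, passed the minimum count through WT alone.

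Of the 32 calls, 17 were lost only with no variance trend among the 11 other fits that used all libraries. In each of the 4 fits that left out a library, 7 kept their call, namely Zfp992, Zfp423, Zfp936, Zfp532, Zfp652, Zfp346 and Zfp709, the last with the limit given above.

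Of the 15 Zfp genes on the list of known roles, Zfp423 and Zfp143 passed, where 20.5% of all accessions did. Zfp296, a partner of Klf4, was at 526.0 and 1217.3 in WT and at 1580.0 and 1679.9 in H1-TKO, without overlap but with WT replicates far apart (log2 fold change 1.03, limma adjusted p = 0.0722); DESeq2 on the recovered reads called it (adjusted p = 0.014), as it did Zfp324, described with its cluster. Klf4 itself was at 673.4 and 1747.4 against 3142.3 and 2796.3. Zfp462, which restrains lineage genes with HP1, was at 2528.4 and 1710.3 against 1466.5 and 1571.4 (log2 fold change -0.45, limma adjusted p = 0.13). Zfp445, which maintains genomic imprints, was at 1680.4 and 1447.4 against 1212.0 and 1108.0, a log2 fold change of -0.43 that missed the threshold (limma adjusted p = 0.0702). Zfp932, a repressor of endogenous retroviruses, was at 228.1 and 188.7 against 145.4 and 178.0, with a log2 fold change of -0.37.

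Some members are known for roles on RNA or ribosomes. Zfp106, which binds RNA in muscle and motor neurons, had the highest mean of all 240, at 11413.0 and 9271.5 against 9770.7 and 9890.8. Zfp598, a ubiquitin ligase for stalled ribosomes, was at 1276.2 and 1466.0 against 1367.3 and 1597.7. Zfp36, a CCCH protein that speeds the decay of AU-rich mRNAs, was at 537.6 and 244.3 against 328.3 and 405.5. In all 3 the genotypes overlapped. The next highest means were those of Zfp292, Zfp706, Zfp462 and Zfp664. Zfp706 was at 1673.4 and 1636.1 against 2102.2 and 2014.8 (log2 fold change 0.32, limma adjusted p = 0.103). Zfp91, Zfp148, Zfp335, Zfp644 and Zfp689 did not pass either, with log2 fold changes of 0.46, 0.11, -0.01, -0.16 and -0.28.

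Across chromosomes, the Zfp genes were compared with the other genes of the same chromosome, since chromosomes 1, 8 and 11 shifted as a whole. The median of the other genes was 0.49 on chromosome 1, -0.23 on chromosome 8 and -0.38 on chromosome 11, and it was within 0.09 of 0 on every other chromosome that held Zfp genes. Leaving out those 3 chromosomes, 214 Zfp genes remained, with 3 higher, 22 lower and a median of -0.21, against -0.002 for the other 8729 accessions. The share lower was 10.3% against 9.58% of the others, of which 9.46% were higher. Centring each chromosome on its other genes left a median of -0.18 and 25 of the 32 calls.

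Chromosome 7 held the most Zfp genes, 66, with 7 lower (10.6%), 1 higher and a median of -0.29, against 10.4% lower and -0.06 for its other genes. Chromosome 6 differed most from its neighbours among the chromosomes with at least 10 Zfp genes: 9 of 10 were below 0 and 4 were called lower, with a median of -0.79 against 0.05. Of its other genes, 8.08% were lower. Zfp783 of chromosome 6 was in the set through its WT mean of 23.5 (4.8 in H1-TKO), which fixed its direction. Chromosome 17 was the other way, with 33 Zfp genes at a median of 0.05 against -0.06 and 2 called lower (6.06% against 9.74%). Chromosome 8 had 16, with 4 lower and a median of -0.61, while 18.0% of its other genes were lower at a median of -0.23. Zfp709, 1 of the 4, was in the set through its WT mean of 80.0 (9.7 in H1-TKO), which fixed its direction. On chromosome 11, 9 Zfp genes had a median of -0.34, close to that of the other genes there, with Zfp652 and Zfp830 lower and Zfp750 higher, where 20.6% of the other genes were lower. The 3 Zfp genes of chromosome X were at a median of -1.08, and none passed the test. Zfp300 among them was in the set through its WT mean of 14.3 (5.9 in H1-TKO), which fixed its direction, and the other 2 were Zfp449 and Zfp711 at -1.08 and -0.30.

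**Figure D2:**
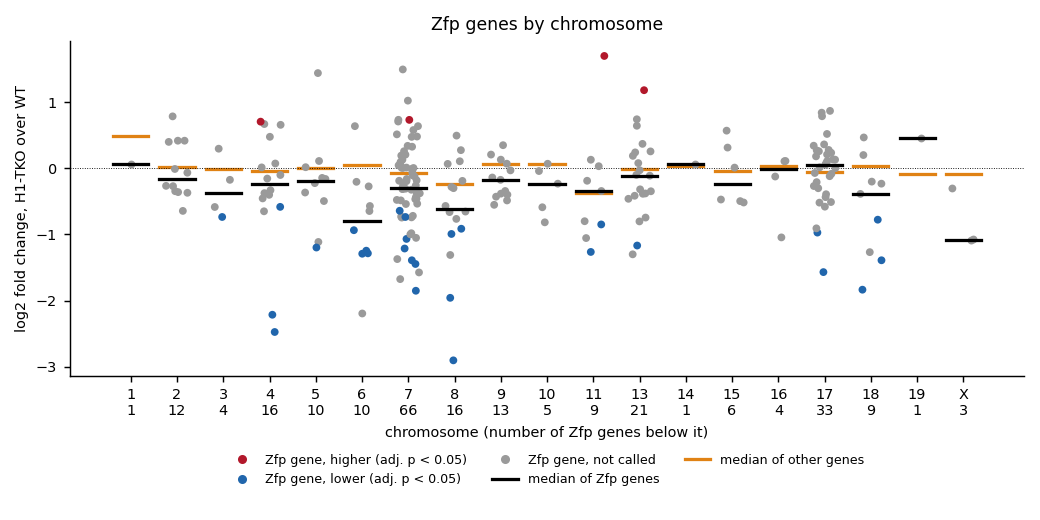
Log2 fold change (H1-TKO over WT) of each Zfp gene, 1 point per gene, by chromosome, with the median of the Zfp genes as a black line and that of the other genes tested as an orange line. The black line lies well below the orange one on chromosome 6 and close to it on chromosomes 11 and 17.

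In the genome build of the files, NCBIM37 (mm9), 237 Zfp genes could be placed with GENCODE M1, and 3 (Zfp383, Zfp433 and Zfp994) could not. Chaining neighbours with at most 200 kb between gene bodies gave 34 clusters with 140 genes, and 20 clusters of 3 or more held 112 of them. A KRAB A-box pattern was found in the proteins of 127 genes and not in 109, and 4 had no protein in the annotation. The count depended on the pattern, with 54 for a strict form and 100 for a narrow one. The 109 may include KRAB genes that the pattern missed, and KRAB genes here are those with a match. A match was present in 95 of the 140 clustered genes (67.9%) and in 32 of the 97 others (33.0%). KRAB genes had a median of 12 finger patterns and the others 8. The median log2 fold change was -0.23 in KRAB genes, with 13 lower (10.2%) and 1 higher, and -0.23 in the others, with 15 lower (13.8%) and 3 higher. With chromosomes centred the medians were -0.11 and -0.19. Clustered genes had 13 lower and 1 higher and a median of -0.20, and genes outside clusters had 15 lower and 3 higher and a median of -0.27. The background was 10.7% lower and 9.84% higher, and neither difference was tested.

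Clusters differed from one another. Of the 20 clusters of 3 or more, 14 had a median below 0, in 5 every gene was below 0, and in 1 none was. The cluster with the most called genes was that at chr6:47769265-48036592, with Zfp786, Zfp282, Zfp783, Zfp956, Zfp777 and Zfp746. All 6 were below 0, with a median of -1.11, and 3 passed. Zfp783 was in the set through WT alone, at a mean of 23.5 against 4.8, so its direction was fixed by the minimum count. Zfp282, a repressor of a retroviral long terminal repeat, was at 146.6 and 146.2 in WT and at 60.6 and 57.9 in H1-TKO (log2 fold change -1.29, SE 0.28, limma adjusted p = 0.0199). Zfp956 was at 146.6 and 176.7 against 57.3 and 74.8 (-1.28), and Zfp777 at 288.6 and 286.9 against 134.4 and 167.5 (-0.94). Zfp786 alone overlapped between genotypes. The gene bodies of Zfp783 and Zfp956 overlap, so their reads may be shared. The 4 other genes tested within 500 kb of this cluster had a median of -0.02, and 1 was lower.

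The stretch before the RefSeq start is shown for the 3 chromosome 6 genes of this cluster whose RefSeq start lies at or before the GENCODE M1 start, to let the reader see how their promoters are built, with each CG dinucleotide in capitals (NCBIM37, 5′ to 3′ on the strand of the gene; Zfp783 at chr6:47893074-47893173 and Zfp956 at chr6:47903289-47903388 on the plus strand, Zfp746 at chr6:48036593-48036692 on the minus strand).
Zfp783: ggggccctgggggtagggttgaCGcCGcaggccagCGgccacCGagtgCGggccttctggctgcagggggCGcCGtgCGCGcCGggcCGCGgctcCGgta
Zfp956: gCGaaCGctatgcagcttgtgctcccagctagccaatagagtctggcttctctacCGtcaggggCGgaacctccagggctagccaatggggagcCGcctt
Zfp746: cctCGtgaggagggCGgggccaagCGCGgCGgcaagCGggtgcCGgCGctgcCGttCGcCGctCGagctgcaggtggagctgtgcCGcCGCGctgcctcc
These 100-base stretches held 13, 5 and 15 CG dinucleotides. Over the 300-base RefSeq windows, Zfp genes had a median of 14 against 8 for all 27025 genes of the table, with 10 in KRAB genes and 19.5 in the others.

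On chromosome 7, 3 clusters had medians of a like depth. In the cluster at chr7:24919193-25086251, Zfp235, Zfp111, Zfp109, Zfp93 and Zfp61 all hold a KRAB pattern and all were below 0, with a median of -0.998. Zfp111 was at 185.4 and 266.1 in WT and at 110.2 and 101.1 in H1-TKO (log2 fold change -1.07, limma adjusted p = 0.0326), and Zfp93, at 37.2 and 61.1 against 14.3 and 22.1, did not pass (-1.37, limma adjusted p = 0.0881). The 10 other genes tested within 500 kb had a median of 0.91, with 2 below 0 and 2 called higher. In the cluster of Zfp658, Zfp719 and Zfp819 the median was -0.98, and that of the 11 other genes around it was 0.66. In the cluster of Zfp329, Zfp110, Zfp128 and Zfp324 the median was -1.16 and none passed. Zfp324, at 52.0 and 123.3 against 20.9 and 28.4, came nearest in limma (adjusted p = 0.0532), at -1.67. The log2 fold change of Zfp324 passed in DESeq2 (adjusted p = 0.0194). Here the 8 other genes around it had a median of -0.54, with 6 below 0, 1 called lower and 1 called higher.

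No member of the 2 largest clusters passed the limma test. The cluster at chr17:21520712-22593656 held 16 genes, all with a KRAB pattern, and its median was 0.20. Of the 16, 4 were below 0. The highest was Zfp995, at 72.2 and 62.2 in WT and at 131.1 and 115.9 in H1-TKO (log2 fold change 0.87, limma adjusted p = 0.0703), which passed once chromosomes were centred (limma adjusted p = 0.0444). The lowest was Zfp948, at 220.3 and 116.7 against 131.1 and 113.7, with overlap. The cluster at chr13:67139530-67927937 held 14 genes, 13 with a KRAB pattern, with a median of -0.36 and 11 below 0. The lowest was Zfp759 at 56.6 and 52.4 against at most 23.1 (-1.30, limma adjusted p = 0.0625), and Zfp65 (-0.80, limma adjusted p = 0.0629) passed once chromosomes were centred (limma adjusted p = 0.0494). Zfp58 and Zfp87 of the same cluster were above 0 without overlap between genotypes, at 0.74 and 0.64. The gene body of Zfp87 lies inside that of Zfp58, so their reads may be shared.

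The cluster at chr4:146866526-147222475 held genes called in opposite directions. All 6 members hold a KRAB pattern. Zfp984 rose and Zfp933, the next member along the chromosome, fell, as given above. None of the other 4 passed. Zfp534 was at 221.1 and 280.3 against 342.7 and 351.8 (log2 fold change 0.48) and Zfp982, near the limit, at 13.2 and 7.6 against 15.4 and 17.9 (0.67), both without overlap. Zfp979 was at 1159.1 and 1150.8 against 1083.1 and 1072.2 (-0.10), and Zfp985 at 507.4 and 476.7 against 490.3 and 503.4 (0.01), and the genotypes overlapped in Zfp985. Tandem KRAB genes can be close copies of one another, and by the study's methods only uniquely mapped reads were used, so reads that fit several copies are missing from these values. In the cluster at chr7:6083091-6347755, Zfp787, Zfp667, Zfp583 and Zfp28 were all above 0 and none passed, with a median of 0.41. In the cluster of Zfp709 on chromosome 8, the median was -0.42, and the 30 other genes tested within 500 kb had a median of -0.40, with 24 below 0 and 7 called lower. Zfp709 alone passed, with the limit given above. Zfp617 was at 296.4 and 228.0 against 182.9 and 167.5 without passing (-0.57, limma adjusted p = 0.117), Zfp882 was at -0.28, and Zfp961 was at 1195.5 and 1314.4 against 1291.3 and 1336.5. The gene bodies of Zfp617 and Zfp882 overlap.

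In the other clusters of 3 or more, the highest and lowest genes stayed within 1.1 of 0 on the log2 scale. Zfp871, at 1495.8 and 1171.5 against 732.7 and 621.4, and Zfp74, at 398.0 and 395.9 against 217.1 and 261.2, were the called genes among them, in clusters of chromosomes 17 and 7 whose medians were 0.11 and -0.26. The lowest genes that did not pass were Zfp418 (-1.05), Zfp174 (-1.04), Zfp938 (-0.82), Zfp579 (-0.73), Zfp810 (-0.55), Zfp626 (-0.53), Zfp771 (-0.38), Zfp26 (-0.34) and Zfp24 (-0.20). The highest were Zfp688 (0.73), Zfp30 (0.71), Zfp773 (0.58), Zfp35 (0.47), Zfp870 (0.28), Zfp653 (0.21), Zfp846 (0.13), Zfp974 (0.13), Zfp263 (0.11), Zfp524 (0.05) and Zfp781 (-0.04). Of these, Zfp688 passed once chromosomes were centred (limma adjusted p = 0.043).

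Because Zfp143 was 1 of the 4 higher genes, the letters ACTACAATT, part of the site it is known to bind, were searched on both strands of the RefSeq promoter windows, which run from 250 bases before to 50 bases after the start. The windows of 201 Zfp genes could be matched by symbol. The letters were in 6 of them (2.99%), all KRAB genes, and in 121 of all 27025 (0.448%). These were Zfp933, Zfp128, Zfp93, Zfp111, Zfp454 and Zfp58. The 4 whose match lies before the GENCODE M1 gene body are shown to place the match, in capitals, on the strand of the gene (NCBIM37; Zfp933 at chr4:147222528-147222595 on the minus strand, Zfp128 at chr7:13466478-13466525 and Zfp93 at chr7:25055332-25055411 on the plus strand, Zfp454 at chr11:50701154-50701212 on the minus strand).
Zfp933: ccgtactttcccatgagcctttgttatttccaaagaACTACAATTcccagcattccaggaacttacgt
Zfp128: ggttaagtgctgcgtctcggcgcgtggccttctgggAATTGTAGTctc
Zfp93: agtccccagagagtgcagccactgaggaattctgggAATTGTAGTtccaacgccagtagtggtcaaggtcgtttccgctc
Zfp454: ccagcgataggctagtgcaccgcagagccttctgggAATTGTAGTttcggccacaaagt
The match began 32, 13, 69 and 164 bases before the RefSeq start, and lay on the opposite strand in all but Zfp933. These genes did not share a direction: Zfp933 and Zfp111 were lower, Zfp128 and Zfp93 had log2 fold changes of -1.57 and -1.37 and Zfp454 of -0.34 without passing, and Zfp58 was at 72.2 and 68.7 against 146.5 and 95.8 (0.74). A match is a description of the letters, not a binding site.

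Other promoter letters differed in share from all genes as well. The comparison set holds every gene of the table, expressed or not, whereas the Zfp genes passed a minimum count, and no difference was tested. CCGGAAG, the core of ETS sites, was in 21.9% of Zfp windows and in 9.93% of all, CCAAT in 52.2% and 41.1%, and GGGCGG in 48.8% and 38.2%. GCGCATG, of Nrf1 sites, was in 7.46% and 4.41%, and AAGATGG, of Yy1 sites, in 10.4% and 7.28%. TATAAA was less frequent, at 7.46% against 15.7%. Among the 21 lower genes with a window, CCGGAAG was in 4 and CCAAT in 12.

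H3K27me3 is the repressive mark that PRC2 sets. In the WT peak list, 12 of the 237 placed Zfp genes (5.06%) had a peak within 2 kb of the GENCODE M1 start, against 13.2% of the 10346 other genes tested. In the H1-TKO list it was 8 (3.38%) against 12.4%. The difference between Zfp and other genes was not tested. With 1 list for each genotype there is no replicate check, and a peak absent from a list may lie under the caller's limit. Of the 15 Zfp genes with a peak in either list, 5 were in both, 7 in the WT list and 3 in the H1-TKO list alone. Of these 15, 14 had no KRAB pattern, the exception being Zfp28.

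The strongest peaks were at Zfp319 and Zfp579 (scores as the peak caller wrote them). They scored 386 and 333 in the WT list and 303 and 386 in the H1-TKO list. In neither list did these peaks come within 1 kb of the start. The WT peaks ended at chr8:97854232 and chr7:4946664, inside the genes, whose starts lie at 97855850 and 4947760. In RNA, Zfp319 was at 159.0 and 173.4 in WT and at 104.7 and 90.6 in H1-TKO, and Zfp579 at 72.9 and 75.3 against 39.7 and 49.5. Neither passed (limma adjusted p = 0.0707 and 0.165). Zfp575 scored 91.1 in WT and 222 in H1-TKO, with RNA at 10.9 and 13.1 against 23.1 and 15.8. Those peaks ended at chr7:25371125 and chr7:25370829, also more than 1 kb from its start at 25372660. At Zfp423 the WT list had a peak of 179 and the H1-TKO list none, while its RNA, given above, was lower in H1-TKO. The WT peak spanned chr8:90485161-90486354, more than 1 kb upstream of the start at 90483494. The 100 bases before the Zfp423 start are shown with CG in capitals (chr8:90483495-90483594, minus strand of NCBIM37). They lie in the window of the peak search but outside the peak.
Zfp423: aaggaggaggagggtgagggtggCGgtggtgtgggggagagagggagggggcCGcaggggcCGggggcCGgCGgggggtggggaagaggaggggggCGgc
The stretch held 6 CG dinucleotides, and over the 300-base windows the 12 Zfp genes with a peak and a window had a median of 28.5.

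The other genes with a peak had scores of 51.3 to 129. Zfp697 scored 129 in WT and 62.7 in H1-TKO, and Zfp768 108 and Zfp664 102 in WT with none in H1-TKO. Zfp800 and Zfp618 scored 68.8 and 62.6 in WT alone, and Zfp362 60.8 in H1-TKO alone. In RNA their log2 fold changes were -0.58, -0.31, -0.22, -0.20, -0.65 and -0.37, and none passed the limma test. Of the 15 genes with a peak, Zfp423 alone was called (6.67%), against 4 higher and 27 lower of the 222 placed genes with none and 20.5% called of all accessions.

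The proteins through which KRAB factors repress were taken from a list of 20 genes, of which 16 had an accession tested; Setdb1, Cbx5, Uhrf1 and Dnmt1 had none. Trim28, which KRAB domains bind, was at 25598.8 and 33780.9 in WT and at 28652.2 and 28858.1 in H1-TKO, an overlap. Of the 16, 1 was higher and 2 lower, where 20.5% of all accessions were called, with a median log2 fold change of -0.21. Mphosph8, the H3K9me3 reader of the HUSH complex, was at 2066.8 and 1859.8 against 3878.3 and 3777.9 (log2 fold change 0.96, SE 0.12, limma adjusted p = 0.00446). Hdac1, a histone deacetylase, was at 412.7 and 367.6 against 73.8 and 76.9 (log2 fold change -2.35, SE 0.23, limma adjusted p = 0.00232). Morc2a, an ATPase that works with HUSH, was at 328.2 and 542.1 against 162.0 and 151.7, a log2 fold change of -1.42 (limma adjusted p = 0.014).

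Other zinc finger families served for comparison. Of 22 numbered Zbtb genes, which pair fingers with a BTB domain, 3 (13.6%) were lower and none was higher by limma. Over all accessions, 10.7% were lower and 9.84% higher. The Zbtb median was -0.16, and 63.6% of Zbtb genes were below 0, a share like the 64.2% of the Zfp genes. Of 10 numbered Zscan and Zkscan genes, which carry a SCAN domain, none passed, with a median of 0.19. Zfp42 (Rex1), a pluripotency marker that the rule leaves out, was at 6014.9 and 8991.2 against 8329.6 and 8763.8, an overlap.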

How the data were processed

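RNA-seq and H3K27me3 ChIP-seq of mESCs were used. Per the submitters' processing notes, reads were handled with Bowtie2, SAMtools, Subread, featureCounts and DESeq2 on mm9. The RNA-seq values deposited by the authors are a signal, gene counts divided by a DESeq2 size factor for each RefSeq accession; whole reads were recovered from their steps (100% of values within 0.01 of a whole number). The peak lists deposited by the authors are MACS regions with a score in column 5.

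log2(value + 1) was fitted with limma 3.58.1 (R 4.3.3; moderated test with a variance trend, two-sided, Benjamini-Hochberg) over accessions with a mean of at least 10. The added 1 makes the change of a low gene look smaller. edgeR 4.0.16 and DESeq2 1.42.0 on recovered reads, other pseudocounts, filters, scalings, a replicate block, centring by chromosome and leave-one-out fits were alternatives. Scripts were tested on simulated data. The study used uniquely mapped reads. Replicate numbers were not taken as pairs. Finger and KRAB patterns were counted in translated GENCODE M1 transcripts, and promoter windows were RefSeq's (GRCm38.p6), placed in NCBIM37 by exact match. No authors' fold changes were used.

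Members and lists were chosen with earlier results of these data known. Genes were named by rule: up to 10 called members per direction with the largest change, the extremes and called members of each cluster of 3 or more, a list of known roles (15 of 27 were members), the 10 highest peak scores, the 5 highest means and those at the limit. Every other member in the text was named after its values were seen, among them Zfp652, Zfp369, Zfp830, Zfp276, the ZMYND8 partners, Zfp128, Zfp454, Zfp979 and Zfp985.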

Additional observations from a re-analysis of the deposited data

How the results depend on the processing

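The median log2 fold change of the Zfp genes was below 0 in every fit run, between -0.29 and -0.13, and outside chromosomes 1, 8 and 11 between -0.257 and -0.089; both ends came from leaving out a WT library. The counts higher and lower were within 1.5 times of those reported with both pseudocounts, the filter at a mean of 50, TMM and quantile scaling, edgeR, DESeq2 and without chromosomes 1, 8 and 11, and the lower count also with chromosomes centred. Without the filter on low values they were 2 higher and 17 lower, beside 624 and 697 of all 20632 accessions in that fit. With no variance trend they were 0 and 0, beside 43 and 37 of all 11113. Centring by chromosome gave 7 higher. Leave-one-out fits gave 1 to 26 higher and 7 to 65 lower, and there the lone library was assumed to vary like the other genotype. No called gene changed sign in any fit. The log2 fold change of Zfp36, at 0.01 and not called, ran from -0.558 without WT replicate 2 to 0.577 without WT replicate 1.

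With the replicate number as a block, 7 were higher and 43 lower, beside 1521 and 1778 of all 11113 accessions. The numbers share only a name: across Zfp genes the deviations of same-numbered libraries correlated at 0.076, over 2 pairs, so the block was not taken as a pairing.

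The number of Zfp genes with a peak near the start was 6 in WT and 4 in H1-TKO within 1 kb, and 6 and 3 for scores of at least 100; within 5 kb both stayed within 1.5 times. A strict KRAB pattern matched 54 genes, and a narrow one 100; the wide pattern was chosen after the narrow one was seen to miss A-boxes. The number of clusters was 34 for gaps of 100 and 500 kb and in GRCm38.p6 order (added after seeing the data) and 36 for 200 kb between starts; they held 127 to 155 genes, and the largest held 12 to 17. Depth limits the low genes most: 1 read was worth 0.776 to 1.10 normalized counts.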

Other observations

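Zfp536, a regulator of neural differentiation, had the second largest log2 fold change above 0 among the Zfp genes and was picked here after its values were seen. It was at 4.7 and 19.6 normalized counts in WT and at 37.5 and 23.2 in H1-TKO (log2 fold change 1.497, SE 0.74, limma adjusted p = 0.184), without overlap. A peak of score 57.6 near its start was in the H1-TKO list alone. The peak list has no replicate.

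In the chromosome 13 cluster, Zfp65 and Zfp87 lay on opposite sides, without overlap between genotypes. Zfp65 was at 184.6 and 164.7 in WT and 91.4 and 108.5 in H1-TKO (log2 fold change -0.80, limma adjusted p = 0.0629). Zfp87 was at 112.5 and 125.4 against 191.7 and 181.2 (log2 fold change 0.64, limma adjusted p = 0.0921). The gene body of Zfp87 lies inside that of Zfp58, so their reads may be shared. With chromosomes centred Zfp65 passed (limma adjusted p = 0.0494).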
